A study of Homo sapiens with 6 samples.

Results

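The MCM helicase family was examined in RNA-seq libraries of ARPE-19, an immortalised human line derived from retinal pigment epithelium. The 10 members, MCM2, MCM3, MCM4, MCM5, MCM6, MCM7, MCM8, MCM9, MCM10 and MCMBP, were taken by gene symbol from the count table of 30618 genes. All 10 were present and all 10 were among the 16749 genes that passed a filter on low counts (edgeR's filterByExpr). Both groups of cells were kept in 50 mM glucose. The NC group (3 libraries) received a non-targeting siRNA, and the siEIF1 group (3 libraries) received an siRNA against EIF1, a translation initiation factor that helps the ribosome choose the start codon. The study describes the 3 libraries of each group as independent biological replicates of a transient, lipid-mediated transfection. The sources do not state how long after transfection the cells for sequencing were collected, and no library from cells in normal glucose was analysed here.

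MCM2 to MCM7 are related ATPases that form a ring, with 1 copy of each subunit, around DNA. The origin recognition complex, CDC6 and CDT1 load this ring onto replication origins before S phase. Kinases, CDC45 and the GINS complex then turn it into the helicase that unwinds DNA at the replication fork. MCM10 takes part in that activation step. MCM8 and MCM9 form a separate helicase that acts in homologous recombination, and MCMBP is a binding partner and chaperone of newly made MCM subunits. Transcription of many genes of this system rises as cells leave quiescence and enter S phase, under control of E2F factors.

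The libraries held between 26499929 and 31431479 counts. EIF1 itself had an FPKM (fragments scaled by transcript length and library size) of 285.6 ± 7.60 (SD, n = 3) in NC and 23.5 ± 0.80 (SD, n = 3) in siEIF1. Of 10 pigment epithelium markers, 4 reached an FPKM of 1 in any library, namely BEST1, MITF, OTX2 and SERPINF1. BEST1 overlaps the abundant FTH1 gene on the opposite strand, so its level is uncertain. RPE65 and TTR are not listed in the table used here, and TYR, TYRP1, PMEL and RLBP1 stayed at or below 0.73 FPKM. The 10 markers summed to between 87.06 and 96.7 FPKM in NC and between 66.06 and 89.77 in siEIF1. The simple epithelial markers KRT8, KRT18 and EZR summed to between 540.4 and 569.3 FPKM in NC and between 628.2 and 638.5 in siEIF1, and the part of these shifts in the results was not tested. Of the markers of blood, endothelial and glial cells, PTPRC is not listed, and CD3E, PECAM1, CDH5, VWF and GFAP stayed at or below 0.05 FPKM.

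The promoters of the members are shown first, because most of them share a sequence feature. The members were chosen by symbol, but the motifs sought were those of factors already known to control many genes of this system. RefSeq promoters (GRCh38.p14, 250 bases before to 50 after a start site) were found for 8 of the 10 members, MCM4 and MCM5 being the others. They were searched on both strands for TTTGGCGC, TTTCGCGC, TTTGGCGG and TTTCCCGC, variants of the site that E2F factors are known to bind. TTTGGCGC and TTTGGCGG differ in their last letter, and TTTGGCGC overlaps the reverse complement of TTTCGCGC when both are present. Of the 8 members, 7 held at least 1 of the 4 motifs, whereas 4.05% of the 27305 genes with a RefSeq promoter did. MCM9 was the member without a match. The matched stretches are printed 5′ to 3′ on the strand of the gene, 30 bases each, with the matched letters in capitals, and positions are counted from the first transcribed base as 0.

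MCM6, distal match at -152 (chr2:135876575-135876604, minus strand): ggctttgcaTTTGGCGCGAAAtccctttcc
MCM6, proximal match at -90 (chr2:135876513-135876542, minus strand): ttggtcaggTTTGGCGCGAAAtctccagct
MCM2, match at 2 (chr3:127598404-127598433, plus strand): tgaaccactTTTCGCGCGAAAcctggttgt
MCM3, match at -4 (chr6:52284728-52284757, minus strand): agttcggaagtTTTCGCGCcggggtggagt
MCM7, match at -9 (chr7:100101388-100101417, minus strand): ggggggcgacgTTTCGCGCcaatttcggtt
MCM10, match at 5 (chr10:13161552-13161581, plus strand): ccggttggaatTTTGGCGGgttcagctgtg
MCMBP, match at -9 (chr10:119872834-119872863, minus strand): ggcggcggctaTTTCCCGCcattgtgcgaa
MCM8, match at 26 (chr20:5950667-5950696, plus strand): ggatcactgaaGCGCCAAAaaagaatttag

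In MCM6 the same capital letters occurred at both places, each run holding TTTGGCGC on the strand of the gene and TTTCGCGC on the other. In MCM2 the capitals hold TTTCGCGC on both strands. The matches in MCM2, MCM3, MCM7, MCM10 and MCMBP printed here lay within 13 bases of the start site. MCM3 held a further TTTCCCGC at -174 and MCM7 one at -187 on the opposite strand. CCAAT, the letters of the NF-Y box, were found in 6 of the 8 members (MCM3, MCM6, MCM7, MCM8, MCM9 and MCM10), against 39.7% of genes. TTTGAA, the letters of the cell cycle homology region, occurred in 0 of the 8 members and in 18.2% of genes. Among tested genes with a promoter entry, an E2F-like motif was present in 6.65% of all 11225 and in 23.2% of the 155 called lower in siEIF1. Genes of the same steps held one often as well, 12 of 18 that activate the helicase, 4 of 9 that load it and 6 of 12 of the E2F, RB and MYBL2 genes. The shares were lower for genes of helicase unloading (1 of 9), histone chaperones at the fork (2 of 10) and recombination partners of MCM8 and MCM9 (1 of 4). Of 41 genes called higher, 2 held one. A match describes letters only, and binding was not measured.

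All 6 subunits of the replicative helicase were lower in siEIF1 than in NC. Genes counted as called had to meet 2 limits, a fold change above 2 or below 0.5 and an adjusted p under 0.05 (edgeR's quasi-likelihood test, Benjamini-Hochberg adjustment), and MCM4 and MCM5 met both. MCM2, MCM3, MCM6 and MCM7 passed the adjusted p but not the fold limit. Over the whole family, 4 of 10 members were called lower, where 1.31% of all tested genes were, and 9 of 10 had an adjusted p under 0.05 with a lower level, where 10.4% of all tested genes did. Both counts include MCM10, which passed the filter on low counts through the NC libraries, where it is high. The 4 called also include MCM8, whose counts are uncertain, and MCM5, whose call was lost without siEIF1 replicate 2. No member was called higher by edgeR or DESeq2, 0 had an unadjusted p under 0.05 in that direction by either tool, and 0.4% of all genes were called higher. With an adjusted p alone, 10.2% of all genes were higher. The counts measure RNA in bulk, so fewer cells that express a gene and less RNA per cell cannot be told apart, and all changes are relative to the other genes of a library.

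MCM4 (ENSG00000104738.18, chromosome 8 from 47960185 to 47978160, forward strand, 17 exons in the canonical transcript) forms the catalytic core of the ring with MCM6 and MCM7. Its FPKM was 7.27, 7.17 and 7.26 in NC replicates 1 to 3 and 3.37, 2.87 and 3.71 in siEIF1 replicates 1 to 3. The NC libraries lay within a CV of 0.861% of each other on library-scaled counts, below the 2.42% of counting error alone. The lowest library was siEIF1 replicate 2. MCM4 fell by 1.11 on the log2 scale (standard error 0.070, adjusted p = 5.00e-07, edgeR), to 46.4% of the NC mean in library-scaled counts (CPM). The study chose MCM4 for display on the same libraries, so its direction there is not independent of these values. The study also reported a change of MCM4 in the same direction by RT-qPCR in separate biological replicates.

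MCM5 (ENSG00000100297.16, chromosome 22 from 35400134 to 35425431, forward strand, 17 exons) sits at the gate through which the ring closes around DNA, next to MCM2. Its FPKM was 4.39, 4.16 and 4.52 in NC and 2.16, 1.97 and 2.20 in siEIF1. The groups were well separated, with siEIF1 replicate 2 again lowest. MCM5 fell by 1.03 on the log2 scale (standard error 0.061, adjusted p = 3.77e-07, edgeR). Without siEIF1 replicate 2 the log2 fold change of MCM5 was -0.997, just inside the fold limit, so its call rests on that library while its adjusted p (8.87e-06 at the highest with a library left out) does not.

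MCM2 (ENSG00000073111.14, chromosome 3 from 127598410 to 127622436, forward strand, 16 exons) carries a histone-binding tail and is a substrate of the CDC7 kinase. It had 7.61, 7.92 and 7.61 FPKM in NC and 4.06, 3.95 and 4.46 in siEIF1, a log2 fold change of -0.87 (standard error 0.060, adjusted p = 7.82e-07, edgeR). MCM3 (ENSG00000112118.20, chromosome 6 from 52264014 to 52284881, reverse strand, 17 exons) is a ring neighbour of MCM5 and is bound by CDC6 during loading. It had 14.26, 12.41 and 12.75 FPKM in NC and 7.30, 7.13 and 7.98 in siEIF1, a log2 fold change of -0.80 (standard error 0.064, adjusted p = 2.53e-06, edgeR). NC replicate 1 was the highest library for MCM3, and the groups still did not overlap.

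MCM7 (ENSG00000166508.18, chromosome 7 from 100092233 to 100101940, reverse strand, 15 exons) was the most abundant member, at 29.32, 29.73 and 29.19 FPKM in NC and 17.92, 18.01 and 18.04 in siEIF1. Its log2 fold change of -0.69 had the smallest standard error of the family (0.046, adjusted p = 6.43e-07, edgeR), and the libraries of each group lay close together. The introns of MCM7 host MIR25, MIR93 and MIR106B. Reads at these genes, 1 to 9 per library in poly(A)-selected RNA, were too few to test and are not a measure of the microRNAs. MCM6 (ENSG00000076003.5, chromosome 2 from 135839626 to 135876443, reverse strand, 17 exons) moved least of the ring subunits, from 6.16, 6.30 and 5.63 FPKM in NC to 4.06, 3.55 and 4.17 in siEIF1. Its log2 fold change was -0.60 (standard error 0.073, adjusted p = 8.71e-05, edgeR), and all NC libraries lay above all siEIF1 libraries.

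**Figure D1:**
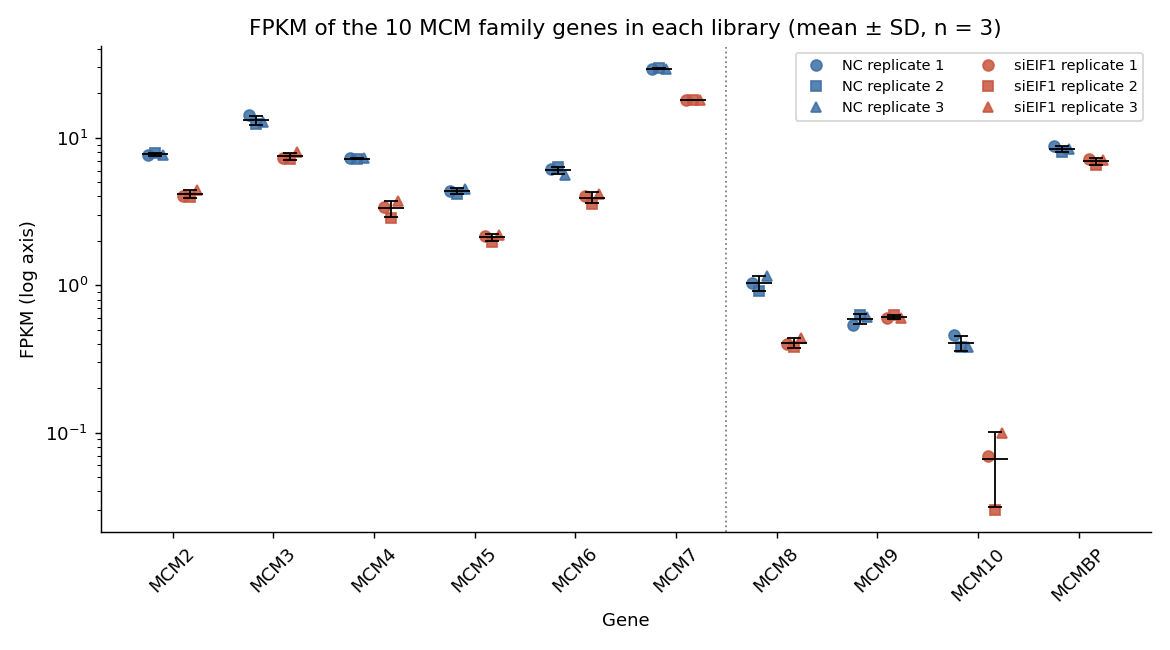
FPKM of each member (log axis) in the 3 NC (blue) and 3 siEIF1 (red) libraries, with the mean and SD in black; the dotted line parts MCM2 to MCM7 from the other members. MCM9 overlaps between the groups, MCM10 falls to a mean of 0.0667 in siEIF1, and the other members lie lower in every siEIF1 library.

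The 95% intervals of the log2 fold changes separated the ring subunits at the ends of the order. That of MCM4 ran from -1.26 to -0.96 and that of MCM5 from -1.16 to -0.89, while that of MCM7 ran from -0.79 to -0.59 and that of MCM6 from -0.76 to -0.44. The intervals of MCM2 and MCM3 lay between and overlapped those of their neighbours in the order. With a test against a 1.5-fold change (glmTreat), MCM4, MCM5, MCM2 and MCM3 passed, MCM3 narrowly (adjusted p = 0.04996, edgeR), and MCM7 (adjusted p = 0.280, edgeR) and MCM6 did not.

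**Figure D2:**
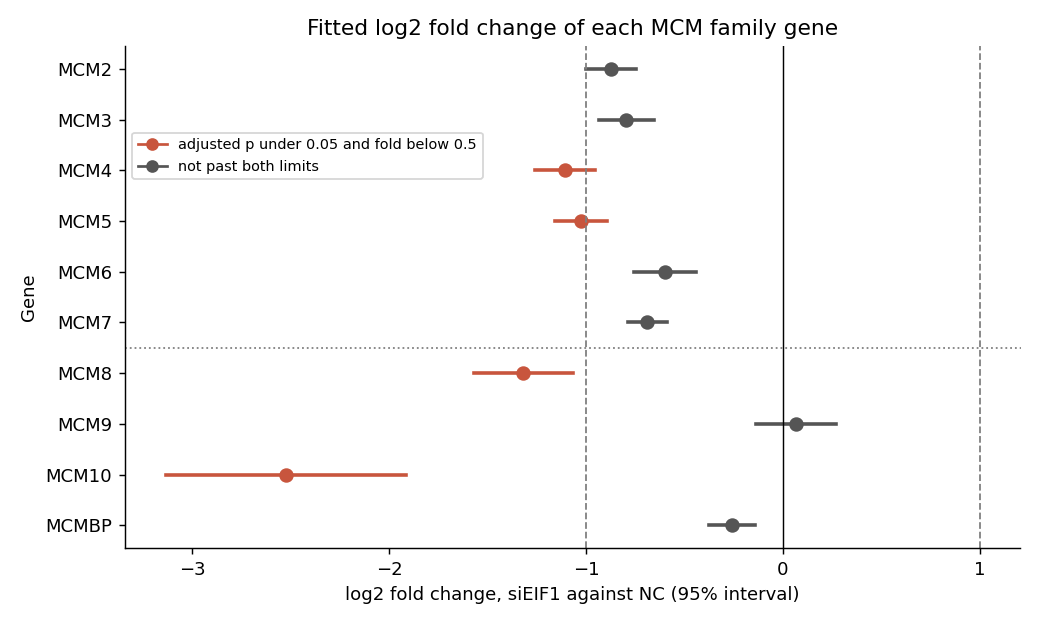
Log2 fold change of each member, siEIF1 against NC, with its 95% interval from the edgeR fit; dashed lines mark a fold change of 2 and 0.5, and red marks members past both limits. MCM10 lies lowest at -2.53, MCM9 is centred near 0 and the 6 ring subunits lie between -1.11 and -0.60.

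The balance between the subunit transcripts was compared per length, as each gene's share of the summed FPKM of MCM2 to MCM7. The sum was 67.9 ± 1.04 (SD, n = 3) in NC and 39.0 ± 1.54 (SD, n = 3) in siEIF1, which is 57.4% of NC. MCM7 alone made up 43.3% ± 0.752 (SD, n = 3) of the sum in NC and 46.2% ± 1.79 in siEIF1. The share of MCM6 was 8.88% ± 0.451 in NC and 10.1% ± 0.521 in siEIF1. MCM4 went the other way, from 10.7% ± 0.164 to 8.49% ± 0.761, as did MCM5, from 6.42% ± 0.306 to 5.41% ± 0.151, and MCM2, from 11.4% ± 0.337 to 10.7% ± 0.295. The share of MCM3 overlapped between the groups, at 19.35% ± 1.195 and 19.2% ± 0.462. For the 5 subunits other than MCM3 the shares of the groups did not overlap (p = 0.1 in an exact two-sided permutation test, the floor of a design with 3 libraries a group, and 0.12 after Benjamini-Hochberg adjustment over the 6 shares), so no share passed 0.05. The most abundant subunit exceeded the least abundant by 6.46 to 7.15 times in the NC and by 8.20 to 9.14 times in the siEIF1 libraries.

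**Figure D3:**
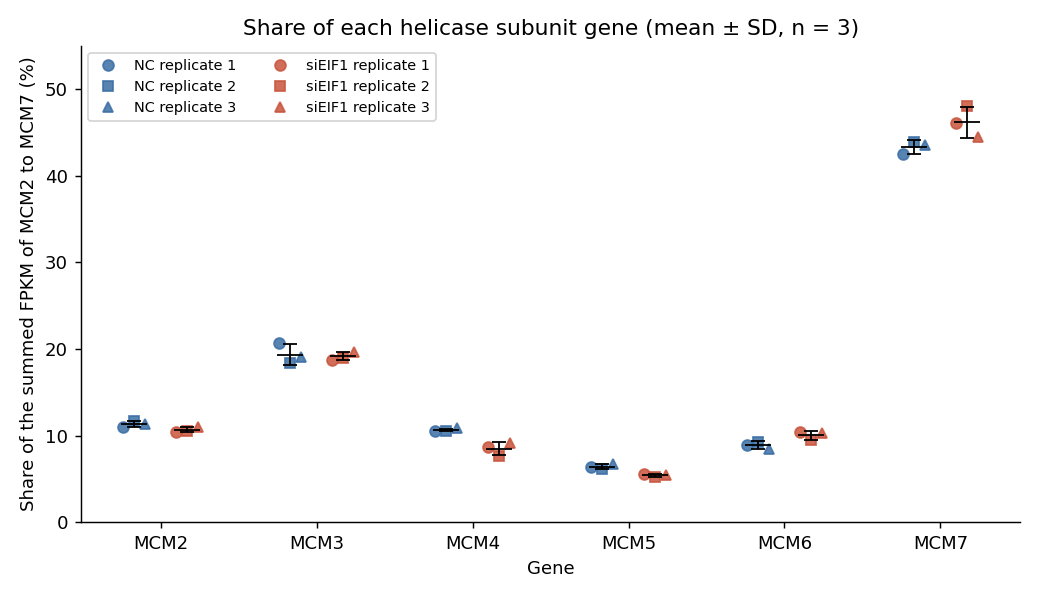
Share of each subunit gene in the summed FPKM of MCM2 to MCM7 (%), by library, with the mean and SD in black. MCM7 and MCM6 take a larger share in siEIF1 (red) than in NC (blue), MCM2, MCM4 and MCM5 a smaller one, and MCM3 overlaps.

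The 4 members outside the ring ranged from the largest fall of the family to a gene whose groups overlapped. MCM10 (ENSG00000065328.17, chromosome 10 from 13161558 to 13211110, forward strand, 20 exons), a scaffold of helicase activation, had 82, 73 and 70 counts in NC and 15, 7 and 20 in siEIF1. These are the lowest counts of the family, and siEIF1 replicate 2 was the lowest library. MCM10 fell by 2.53 on the log2 scale (standard error 0.28, adjusted p = 4.26e-05, edgeR), with a 95% interval from -3.14 to -1.92, and only EIF1 ranked lower among all 16749 genes. With each library left out in turn its log2 fold change ran from -2.88 to -2.23. MCM10 passed the filter on low counts through the NC libraries, where it is high, so its call and its rank are given as a description. A filter of 10 counts in every library removed MCM10 from the test.

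MCM8 (ENSG00000125885.13, chromosome 20 from 5950652 to 5998977, forward strand, 19 exons), a helicase of recombination repair, had 1.03, 0.91 and 1.15 FPKM in NC and 0.40, 0.38 and 0.44 in siEIF1. It fell by 1.32 on the log2 scale (standard error 0.12, adjusted p = 5.35e-06, edgeR). Its counts are uncertain, since a readthrough gene annotated on the same strand (ENSG00000286235) overlaps 48029 bases of it and held 1052 to 1175 counts per library, against 109 to 301 for MCM8. That gene had a log2 fold change of -0.11 (standard error 0.061, adjusted p = 0.233, edgeR). When the counts of both were summed, a choice made after seeing the data, the log2 fold change was -0.28 (standard error 0.059, adjusted p = 0.00449, edgeR) and the call of MCM8 was lost.

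MCM9 (ENSG00000111877.18, chromosome 6 from 118813442 to 118935162, reverse strand, 14 exons), the partner of MCM8, had 0.54, 0.63 and 0.61 FPKM in NC and 0.60, 0.63 and 0.60 in siEIF1. The groups overlapped and the test was not passed (log2 fold change 0.066, standard error 0.095, adjusted p = 0.683, edgeR). The 95% interval of MCM9, from -0.14 to 0.27, did not reach the fall of any ring subunit. MCM9 overlaps ASF1A, a histone chaperone gene on the opposite strand, over 15020 bases, and the strand setting of the counting is not given in the sources used here. MCMBP (ENSG00000197771.13, chromosome 10 from 119829404 to 119892556, reverse strand, 16 exons) had 8.79, 7.98 and 8.43 FPKM in NC and 7.20, 6.52 and 7.03 in siEIF1. It was lower in every siEIF1 library, but by less than the ring subunits (log2 fold change -0.26, standard error 0.055, 95% interval -0.38 to -0.14, adjusted p = 0.00460, edgeR).

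Set side by side, the median log2 fold change was -0.83 for MCM2 to MCM7 and -0.79 for the other 4 members, against 0.0033 over all tested genes. The median of the other 4 lies midway between MCM8 and MCMBP, so its closeness to the ring rests on the uncertain counts of MCM8. Summed with the readthrough gene, MCM8 had a log2 fold change of -0.28. The spread was narrower within the ring, from -1.11 to -0.60, than among the others, from -2.53 to 0.066. That wider spread rests on MCM10 and on the counts of MCM8. Without MCM10, and with the summed MCM8, the others lay between -0.28 and 0.066, a narrower range than that of the ring. The mean of MCM2 to MCM7 lay 0.16 above that of MCM8, MCM9, MCM10 and MCMBP, a sign that depends on MCM10: with the filter that removed it the difference was -0.34. By library, the mean log2 CPM of MCM2 to MCM7 relative to the NC mean was 0.029, 0.0074 and -0.037 in NC and -0.84, -0.91 and -0.79 in siEIF1. For the other 4 members the values were 0.038, -0.048 and 0.0093 in NC and -0.99, -1.24 and -0.87 in siEIF1. Replicate 2 was lowest and replicate 3 highest in both, an order that among the other 4 members follows MCM10, since MCMBP was highest in replicate 1 and MCM9 in replicate 2. Replicate 2 held the lowest siEIF1 value of 7 of the 10 members, compared with 33.5% of all tested genes and 40.6% of the genes called lower. For 9 of the 10 members the CPM of the groups did not overlap, with siEIF1 lower (exact two-sided permutation p = 0.1 for each, again the floor), and the same held for 18.9% of all tested genes.

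**Figure D4:**
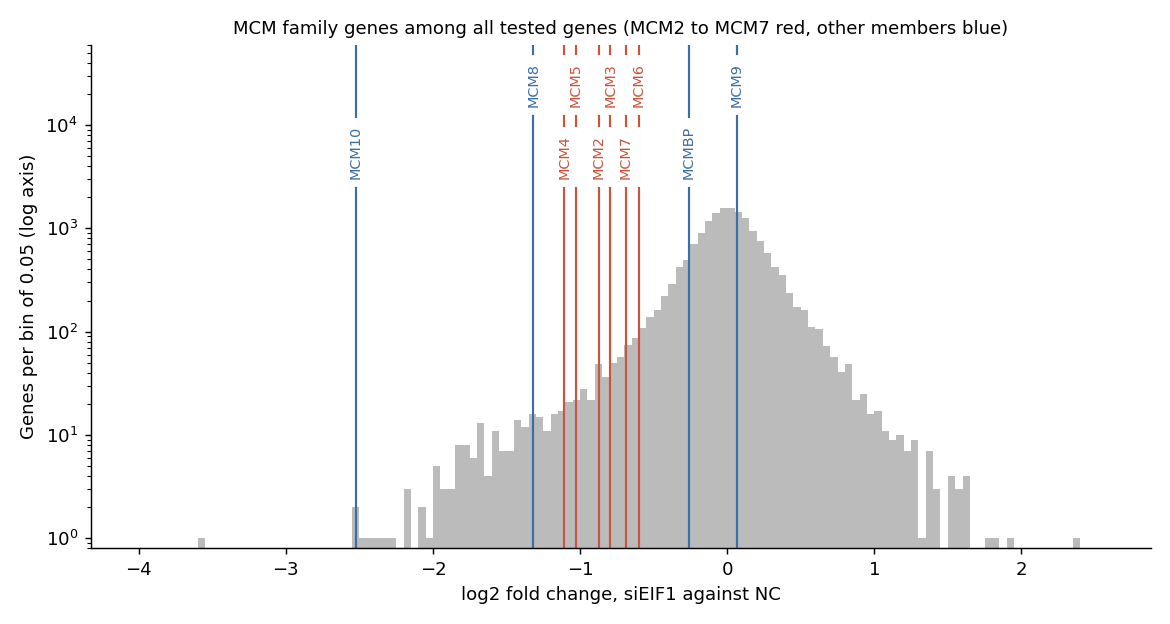
Log2 fold changes of all 16749 tested genes (grey, log axis), with MCM2 to MCM7 marked in red and the other members in blue. The ring subunits lie in the left shoulder of the distribution, MCM10 in its extreme tail and MCM9 near its centre.

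By rank from the lowest log2 fold change, MCM10 stood at position 2, MCM8 at 127, MCM4 at 187, MCM5 at 223, MCM2 at 307, MCM3 at 378, MCM7 at 485 and MCM6 at 639 of the tested genes. All ring subunits thus fell within the lowest 3.82% of genes. MCMBP stood at 2378 and MCM9 at 10308. The place of MCM10 is a description, since it passed the filter on low counts through NC. That of MCM8 rests on its uncertain counts.

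On the per-length scale, the order of levels in NC was MCM7, MCM3, MCMBP, MCM2, MCM4, MCM6, MCM5, MCM8, MCM9 and MCM10, from 29.4 to 0.407 FPKM, and no neighbours in that order overlapped. In siEIF1 the order was MCM7, MCM3, MCMBP, MCM2, MCM6, MCM4, MCM5, MCM9, MCM8 and MCM10. MCM3 overlapped MCMBP there, and MCM6 overlapped both MCM2 and MCM4, so these neighbours were not told apart by their spread. MCM8 and MCM9 changed places: MCM8 was the higher in all NC libraries and the lower in all siEIF1 libraries. This holds for the reads assigned to MCM8 alone, without those of the overlapping readthrough gene.

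Several members share a start region with a gene on the opposite strand, and these partners offer a comparison at the same locus. PRKDC, the catalytic subunit of DNA-dependent protein kinase, starts 7 bases from MCM4 and had 8.53 ± 0.411 FPKM (SD, n = 3) in NC and 8.44 ± 1.41 in siEIF1 (log2 fold change 0.0040, 95% interval -0.17 to 0.18, adjusted p = 0.982, edgeR). TPRA1, 143 bases from MCM2, had a log2 fold change of 0.062 (95% interval -0.050 to 0.17). AP4M1, an adaptor complex subunit whose start lies 391 bases inside MCM7, had 0.079 (95% interval -0.076 to 0.24). None of these intervals reached the log2 fold change of the member beside it. TRMT6, a tRNA methyltransferase subunit, starts 94 bases from MCM8 and had -0.092 (95% interval -0.25 to 0.068), and SEC23IP, 151 bases from MCMBP, had -0.042 (95% interval -0.18 to 0.092). The 5 tested partners did not pass the test (adjusted p of 0.433 or more, edgeR), and their groups overlapped. ASF1A, which overlaps MCM9, had a log2 fold change of -0.11 (standard error 0.067, adjusted p = 0.274, edgeR). A long noncoding RNA gene (ENSG00000285600) that overlaps 2331 bases of MCM2 on the opposite strand, with 36 to 94 counts per library, was lower in siEIF1 (log2 fold change -0.86, standard error 0.22, adjusted p = 0.0143, edgeR).

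Genes of ring loading, GMNN among them, were lower as well, with 4 of 9 called and 7 of 9 past the adjusted p. Of all tested genes, 1.31% were called lower and 10.4% were lower at the adjusted p. CDC6, the loading ATPase, fell by 2.07 on the log2 scale (standard error 0.17), from 2.30 ± 0.445 to 0.543 ± 0.147 FPKM (SD, n = 3). CDT1, which brings MCM2 to MCM7 to the origin, fell by 1.34 (standard error 0.092). Of the origin recognition complex, ORC6 (log2 fold change -1.77) and ORC1 (-1.30) were called, whereas ORC2, ORC3, ORC4 and ORC5 lay between -0.27 and -0.080. GMNN, the inhibitor of CDT1, had a log2 fold change of -0.82 and so missed the fold limit. The median of the 9 loading genes was -0.82, which is the value of GMNN. The called genes lay between -2.07 and -1.30 and ORC2 to ORC5 between -0.27 and -0.080, so none of them lay near it.

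Of 24 genes that activate the helicase or travel with it, 11 were called lower and 23 passed the adjusted p with a lower level, with a median log2 fold change of -0.86. Over all tested genes these shares were 1.31% and 10.4%. CDC45, which binds the ring with GINS, fell by 1.99 (standard error 0.19), from 1.39 ± 0.137 to 0.347 ± 0.0902 FPKM (SD, n = 3). The GINS subunits GINS2 (-1.54), GINS4 (-1.37) and GINS1 (-1.01) were called, and GINS3 (-0.67) was not. GINS1 lost its call without NC replicate 1 (-0.99), NC replicate 2 (-0.98) or siEIF1 replicate 2 (-0.93), and MTBP without NC replicate 2 (-0.91), so that 9 to 11 genes of the list were called with a library left out. CDC7, the kinase that phosphorylates the ring, fell by 1.70 (standard error 0.26), while its activating subunits DBF4 (-0.54) and DBF4B (-0.51) did not reach the fold limit. CLSPN, a fork and checkpoint adaptor, had the lowest log2 fold change of the list at -2.36 (standard error 0.18). CCNE2 (-1.82), WDHD1 (-1.39), POLE2 (-1.34), RECQL4 (-1.26) and MTBP (-1.14) were also called. POLE4, a small polymerase epsilon subunit, was the gene of the list that did not pass (log2 fold change -0.020, adjusted p = 0.862, edgeR).

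**Figure D5:**
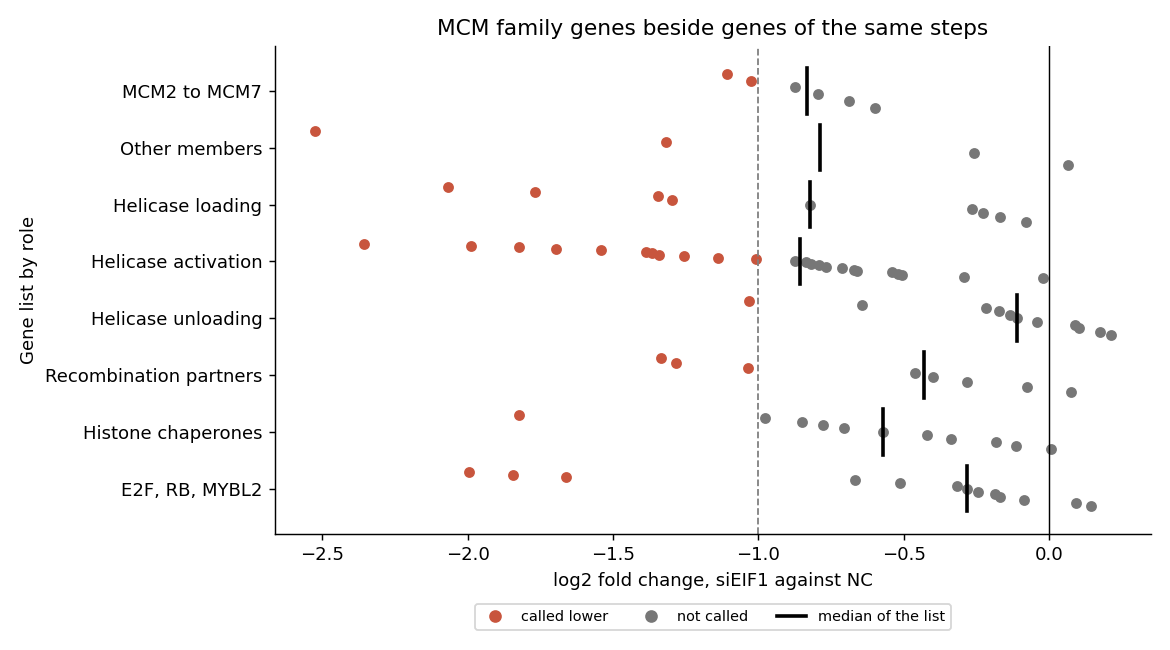
Log2 fold change (siEIF1 against NC) of each tested gene by role, red where called lower, with the median of each list as a black bar and the fold limit dashed. The bars of the ring, loading and activation genes lie between -0.86 and -0.82, and that of the unloading genes at -0.11. The loading bar is the value of GMNN, and no other loading gene lies near it.

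Of 11 genes of helicase unloading 1 was called lower, where 1.31% of all tested genes were, and the median log2 fold change was -0.11. At the adjusted p alone 3 of the 11 were lower and 1 higher, against 10.4% and 10.2% of all tested genes. The called gene was TRAIP, a ubiquitin ligase that acts on the ring (log2 fold change -1.03, standard error 0.16). LRR1, the substrate receptor that marks the ring for unloading, had a log2 fold change of -0.64 and passed the adjusted p (0.00428, edgeR) but not the fold limit. VCP, the ATPase that extracts the ring from chromatin, had a log2 fold change of 0.10 (adjusted p = 0.135, edgeR). UBXN7, a VCP cofactor, was higher (log2 fold change 0.21, adjusted p = 0.0444, edgeR). TRAIP was not called without NC replicate 3 or without siEIF1 replicate 3, where edgeR called 0 of the 11 genes lower and 3 and 5 of them, respectively, had a lower level at an unadjusted p under 0.05.

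Of 8 genes of the recombination step in which MCM8 and MCM9 act, 3 were called lower and 6 passed the adjusted p with a lower level, with a median log2 fold change of -0.43. Over all tested genes these shares were 1.31% and 10.4%. HROB, which recruits MCM8 and MCM9 to DNA, fell by 1.04 (standard error 0.20). Its call was lost without NC replicate 1 (log2 fold change -0.84) and without siEIF1 replicate 2 (-0.95), which left 2 genes of the list called. RPA2, a subunit of the protein that coats single-stranded DNA, went from 15.6 ± 0.717 to 6.31 ± 0.357 FPKM (SD, n = 3), while RPA1 had a log2 fold change of -0.076 (adjusted p = 0.312, edgeR) and RPA3 of -0.46. RAD50 was the gene of the list with the highest value, 0.075 (standard error 0.24).

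The genes whose profile over the 6 libraries was nearest to the mean profile of MCM2 to MCM7 were sought among 10602 genes with a mean count of at least 200. Likeness was the root mean square difference of log2 CPM, each gene being centred on its NC mean. NKAPD1 was nearest (difference 0.035), followed by MACROH2A1, a histone variant (0.047), RHOT1, a mitochondrial GTPase (0.049), ZWINT, a kinetochore protein (0.051), and DDIT3, a stress-response transcription factor (0.059). Their log2 fold changes lay between -0.88 and -0.82, and none was called. Among the members, MCM2 (0.037) and MCM3 (0.067) were nearest to the mean of which they are part, and MCM4 (0.195) and MCM6 (0.184) farthest within the ring. The 6 libraries fall into 2 groups, and all genes compared share the libraries and their depth.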

How the data were processed

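ARPE-19 cells in 50 mM glucose were profiled by strand-specific, poly(A)-selected RNA-seq in 3 NC and 3 siEIF1 libraries, grouped by sample title. The authors trimmed reads (FASTX-Toolkit 0.0.13), aligned them to GRCh38 with HISAT2, and deposited raw counts of uniquely mapped reads per gene. The authors also deposited FPKM values, rounded to 2 decimals. The counting program, strand setting and annotation release are not given in the sources used here. No column was left unmatched.

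Counts were fitted with edgeR 4.0.16 in R 4.3.3 (TMM, filterByExpr, quasi-likelihood test, Benjamini-Hochberg adjustment over 16749 genes). Standard errors came from the F statistic. In simulated counts for siEIF1 against NC on 16749 genes with 200 changed, edgeR recovered 199. DESeq2 1.42.0 (the study's tool), limma 3.58.1 on log2(FPKM + 1) and log2(FPKM + 0.1), other normalizations and filters, a replicate block, an adjusted p of 0.01, glmTreat and leaving out each library were alternatives. Coordinates came from GENCODE release 44 (GRCh38). Within groups, libraries differed by more than sampling noise (chi-square per degree of freedom 3.00 to 14.1).

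The members and gene lists were chosen with earlier results of these data known. Named are the members, EIF1, list genes that were called or, where none was, the extremes, genes overlapping a member or starting head to head within 1000 bases, and the 5 nearest profiles; other genes are named after their values were seen, and 1 called list gene is not reported by name here. Protein sequences were not used here. MCM10 had the fewest counts, with a counting error of 26.7% and a spread of 46.3% (CV) in siEIF1.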

Additional observations from a re-analysis of the deposited data

How the results depend on the processing

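With limma on log2(FPKM + 1), which understates changes of genes with low FPKM, 0 members of MCM2 to MCM7 and 0 of the other 4 were called lower, and the medians were -0.75 and -0.32; all 9 members that passed the adjusted p by edgeR passed it there too. On that scale 2 loading, 0 activation, 0 unloading and 1 recombination genes were called lower, though 23 activation and 3 unloading genes were lower at an unadjusted p under 0.05, and 1 gene of all was called higher and 19 lower. With log2(FPKM + 0.1) the median of the other members was -0.72, 0 unloading genes were called and 15 genes of all were higher. The mean difference between MCM2 to MCM7 and the other members reversed to -0.45 and -0.099 in these fits and to -0.34 with at least 10 counts in every library, a filter that takes out MCM10, moves the median of the others to -0.26 and leaves 1 of them called and 34 genes of all higher. Genes called higher numbered 36 with DESeq2, 31 at an adjusted p under 0.01 and 30 with glmTreat, against 67. With glmTreat, 4 of MCM2 to MCM7, 0 unloading, 1 recombination and 2 histone chaperone genes were called lower. Shares computed on counts in place of FPKM changed by 0.14 percentage points for MCM3 (a reversal), -2.97 for MCM4 and -1.40 for MCM5. With each library left out, the called count of MCM2 to MCM7 ran from 1 to 2, of unloading genes from 0 to 1, of histone chaperones from 1 to 2 and of genes higher from 44 to 93, the median of the other members from -0.85 to -0.75, and the share change of MCM3 from -0.69 to 0.47. The cause was not tested. The replicate number as a block left every call of a member in place, with 2 and 2 called lower, 73 genes higher and 225 lower. Same-numbered libraries had correlations of deviations of 0.15, 0.095 and 0.13, and each library correlated best with its own number, but the sources tie the numbers to no shared batch.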

Other observations

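The E2F, RB and MYBL2 genes were themselves unequal, and any part of theirs in the levels of the members was not tested. Of 13 tested genes, 3 were called lower in siEIF1, where 1.31% of all tested genes were. E2F1, an activating E2F, fell by 1.845 on the log2 scale (standard error 0.12), from 4.27 ± 0.321 to 1.17 ± 0.200 FPKM (SD, n = 3), and MYBL2 fell by 1.66 (standard error 0.13). E2F2, also an activator, had a log2 fold change of -1.995 (standard error 0.37) on 36, 27 and 19 counts in NC and 6, 8 and 8 in siEIF1. It passed the filter on low counts through the NC libraries, where it is high, so its call is given as a description: the filter of 10 counts in every library removed it, DESeq2 gave it no adjusted p, and it missed the fold limit in both limma fits, which left 2 genes called under each. Over the list 9 of 13 were lower at the adjusted p, where 10.4% of all tested genes were. E2F7 (-0.67) and RBL1 (-0.51) were among these 9, as were E2F6 (-0.32), E2F3 (-0.28), E2F4 (-0.25) and RB1 (-0.17) with smaller changes, and RBL2 had a log2 fold change of 0.15 (adjusted p = 0.120, edgeR's quasi-likelihood test). E2F8 was left out by the filter on low counts.

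Histone chaperones at the fork, which work beside the histone-binding tail of MCM2, were lower with a median log2 fold change of -0.57, and 9 of 11 passed the adjusted p. Of all tested genes, 10.4% were lower at that limit. ASF1B was called (-1.825, standard error 0.12), and its paralog ASF1A was not (-0.11). CHAF1A (-0.98) and CHAF1B (-0.78) of chromatin assembly factor 1 missed the fold limit, and SSRP1 had a value of 0.0077. Genes whose symbols resemble those of the members did not pass the test: MCM3AP had a log2 fold change of 0.0092 (standard error 0.068), MCM3AP-AS1 of 0.18 (standard error 0.12) and MCMDC2 of -0.22 (standard error 0.22); they were named after their values were seen.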
